A study of Mus musculus with 12 samples.

Results

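The comparison is between AXL KO and WT cells of the MMTV-NIC breast cancer line, both held in hypoxia, and rests on 6 of the 12 libraries of the study. The tested cells were 3 libraries of MMTV-NIC cells lacking AXL in 1% oxygen, and they were set against 3 libraries of AXL wild-type MMTV-NIC cells in 1% oxygen. The libraries were chosen by their titles. A further 3 AXL KO and 3 WT libraries from 21% oxygen (normoxia) were used to see whether a genotype difference was also there without hypoxia. All 12 libraries are mouse total RNA, and the counted fragments in genes ran from 47965628 to 52581702 per AXL KO hypoxia library and from 46269167 to 47417322 per WT hypoxia library.

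AXL belongs with TYRO3 and MERTK to the TAM group of cell-surface tyrosine kinases, whose ligands GAS6 and PROS1 bridge them to phosphatidylserine on cell surfaces. In tumour cells AXL is known for signalling through PI3K, ERK and NF-kappaB pathways and for ties to invasion, the mesenchymal state and hypoxia, in which HIF transcription factors switch on genes of glycolysis, acid export and blood vessel growth. MMTV-NIC tumours arise in mice in which the mammary MMTV promoter drives an activated Neu (the rat form of ErbB2) together with Cre recombinase, so that AXL is asked about here in a HER2-type tumour cell. The labels state neither the time in hypoxia, the number of knockout clones, nor the origin of the replicates. Clonal differences and the loss of AXL therefore cannot be told apart, and each p-value speaks only to how far these libraries vary, possibly for technical reasons alone.

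In 6 of the 12 samples, 3 of them in hypoxia, the genotype tag contradicts the title, and Axl counts followed the titles. The WT hypoxia libraries stood far apart from each other. The coefficient of variation between replicates, beyond counting error, was 0.074 in AXL KO hypoxia and 0.402 in WT hypoxia, and the fitted weight of a library was 3.18 in AXL KO and 0.314 in WT. Of 9178 genes with at least 10 CPM (counts scaled to a common library total) in either group, 6 spanned more than 4-fold among the AXL KO libraries and 371 among the WT libraries. Ribosomal RNA genes took 0.115% to 0.119% of counts in AXL KO libraries, and 0.0928%, 0.52% and 0.284% in WT replicates 1, 2 and 3. Mitochondrial genes took 0.758% to 0.803% in AXL KO libraries, and 0.959%, 1.52% and 1.34% in the same WT libraries. The part of RNA quality in the results below was not tested.

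The luminal keratins Krt8 and Krt18 were abundant, but Krt19, luminal too, was near 0. Summed mammary epithelial markers (6 of 8 tested) ran from 2057 to 2134 CPM in AXL KO and stood at 4279, 936 and 1198 CPM in WT. On that list Epcam, Cdh1 and Krt14 were lower in AXL KO (log2 fold change −2.75, −2.75 and −5.40). Many markers of other cell types were near 0, but some, such as Pdgfra, Col1a1 and Sox10, were not. Krt8, Krt18 and Cd68 were chosen after their values were seen. Krt8 stood at 559, 596 and 588 CPM in AXL KO, against 766, 302 and 391 CPM in WT. Krt18 stood at 936, 886 and 909 CPM in AXL KO, against 1072, 348 and 357 CPM in WT. Krt5 and Krt19 had at most 0.285 CPM in any hypoxia library. The leukocyte marker Ptprc had at most 0.0658 CPM, and the summed leukocyte list (1 of 7 markers tested) ran from 44.2 to 49.7 CPM in AXL KO and from 6.05 to 8.87 CPM in WT, nearly all of it the lysosomal protein Cd68. Summed endothelial markers, nearly all Kdr in AXL KO, ran from 14.6 to 16.2 CPM in AXL KO and from 0.838 to 2.54 CPM in WT, while Cdh5 had at most 0.614 CPM. Summed fibroblast markers (4 of 7 tested) ran from 52.7 to 59.1 CPM in AXL KO and from 67.5 to 89 CPM in WT, with Lum and Thy1 at most 0.0409 CPM. Among them Pdgfra stood at 7.29, 9.37 and 8.7 CPM in AXL KO, against 57.7, 63.4 and 36.5 CPM in WT (log2 fold change −2.59). Col1a1 (1.37) and Dcn (2.13) went the other way, with Col1a1 at 35.3, 38.2 and 36.3 CPM in AXL KO, against 21, 9.19 and 14.3 CPM in WT. Summed neural and Schwann markers (4 of 5 tested, 1 higher and 2 lower) ran from 6.9 to 7.71 CPM in AXL KO and from 85 to 146 CPM in WT. Nearly all of the WT level was Sox10. S100b went the other way, at 5.25, 5.04 and 5.8 CPM in AXL KO, against 0.0409, 0 and 0.0194 CPM in WT (7.72), and made up most of the AXL KO level. The adipocyte marker Fabp4 was lower in AXL KO, at 4.07, 4.17 and 4.09 CPM, against 25.8, 7.91 and 8.77 CPM in WT (−1.56). The part of other cell types in the results was not tested. In such bulk samples, fewer cells of a type and less RNA per cell cannot be told apart.

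Loss of AXL went with a broad difference in hypoxia. With a separate spread for each genotype, 7580 of 15216 tested genes (49.8%) passed an adjusted p of 0.05 (edgeR's voomLmFit, Benjamini-Hochberg), of which 3665 (24.1%) were higher and 3915 (25.7%) lower in AXL KO. The median log2 fold change over all tested genes was −0.01, and 2550 called genes differed more than 4-fold (1239 higher, 1311 lower). The libraries of the groups did not overlap for 9773 genes (64.2%; 31.3% higher and 32.9% lower), and for 4129 genes (27.1%; 14.9% higher and 12.3% lower) the gap between the groups was wider than the range inside either group. That last count was 8059 without WT replicate 1. The number of calls depended on which WT library was left out. Without WT replicate 3, 3971 genes were called, against 5729 without WT replicate 2 and 9058 without WT replicate 1. The chi-square per degree of freedom between the counts of WT replicates 1 and 2 was 350. It was 199 for replicates 1 and 3 and 104 for replicates 2 and 3. The fit without WT replicate 3 thus kept the most distant WT pair. Whichever hypoxia library was left out, 3910 genes (51.6% of those called) kept their call.

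**Figure D1:**
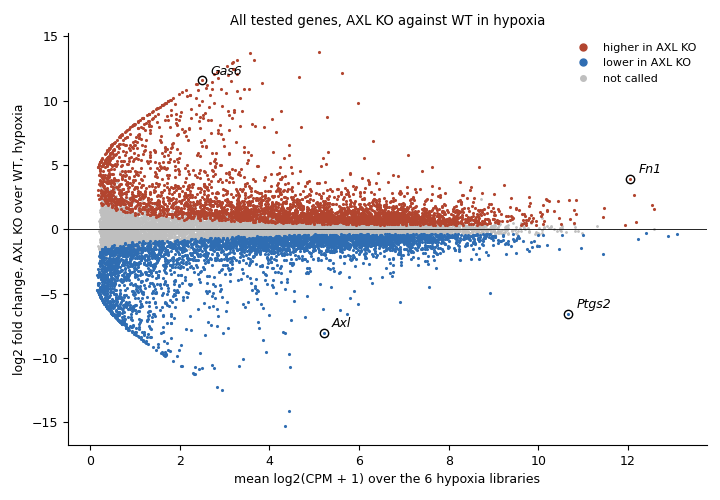
Each point is 1 of the 15216 tested genes, with the mean of log2(CPM + 1) over the 6 hypoxia libraries on the x axis and the log2 fold change of AXL KO over WT hypoxia on the y axis. Red points are the 3665 genes called higher in AXL KO, blue points the 3915 called lower and grey points genes not called, and Axl, Gas6, Fn1 and Ptgs2 lie far from 0.

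The targeted gene was checked first. Axl (ENSMUSG00000002602, GRCm38 chromosome 7, 25757273 to 25788705) had 86, 105 and 78 counts in AXL KO hypoxia and 23077, 19395 and 28495 counts in WT hypoxia. On the CPM scale this was 1.87, 2.13 and 1.55 CPM in AXL KO, against 472, 425 and 554 CPM in WT. The groups did not overlap, and Axl was lower in AXL KO with a log2 fold change ± standard error of −8.03 ± 0.18 (adjusted p = 6.56e-08). Of the other TAM receptors neither passed the test. Tyro3 stood at 7.92, 8.75 and 9.43 CPM in AXL KO, against 12.5, 9.6 and 12.5 CPM in WT (log2 fold change −0.40 ± 0.22, adjusted p = 0.163). Mertk stood at 62.1, 54.1 and 57.3 CPM in AXL KO, against 73.2, 57.2 and 44.2 CPM in WT, and its libraries overlapped (log2 fold change 0.02 ± 0.19, adjusted p = 0.94).

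The TAM ligands went opposite ways. Gas6, the ligand with the highest affinity for AXL (chromosome 8, 13465374 to 13494490), stood at 31.4, 32 and 30.7 CPM in AXL KO hypoxia and had no count in any WT hypoxia library, so that it was at least 1525-fold higher in AXL KO (adjusted p = 5.12e-05). Pros1, the ligand that binds TYRO3 and MERTK, stood at 12.1, 14.4 and 14 CPM in AXL KO, against 55.5, 305 and 129.7 CPM in WT. It was lower in AXL KO (log2 fold change −3.27 ± 0.40, adjusted p = 2.31e-04), with WT replicate 2 far above the other two, and the value was −3.86 without WT replicate 1 and −2.65 without WT replicate 2. Of 5 TAM genes 1 was higher, 2 were lower and 2 were not called, against 49.8% of all tested genes called.

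**Figure D2:**
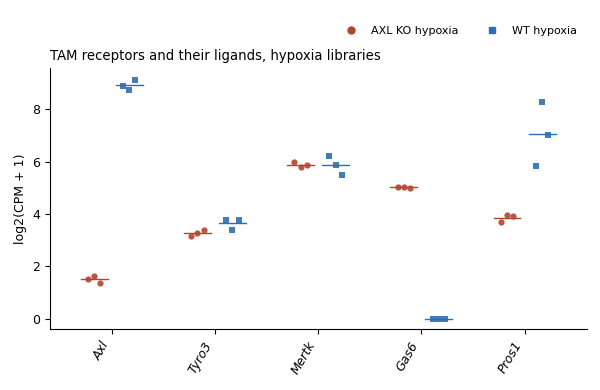
Levels of the TAM receptors and ligands in the hypoxia libraries, as log2(CPM + 1), with AXL KO libraries as red circles, WT libraries as blue squares and group means as lines. Axl was low in all 3 AXL KO libraries, Gas6 was at 0 in all 3 WT libraries, and Mertk overlapped between the groups.

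The 12 coding genes with the largest CPM difference among those higher in AXL KO included Fn1, Bsg, Vim and Spp1. Fn1, the matrix glycoprotein fibronectin, stood at 17555, 16127 and 15987 CPM in AXL KO, against 2204, 791 and 737 CPM in WT (log2 fold change 3.93 ± 0.28, adjusted p = 1.66e-05). Bsg, which encodes basigin, a chaperone of lactate transporters, stood at 11943, 10897 and 11141 CPM in AXL KO, against 2152, 1658 and 1548 CPM in WT (2.68 ± 0.14, adjusted p = 2.92e-06). Every AXL KO library exceeded every WT library for both. Spp1, the secreted integrin ligand osteopontin, stood at 10599, 10220.4 and 11062 CPM in AXL KO, against 4042, 3834 and 2709 CPM in WT (1.61 ± 0.14, adjusted p = 4.45e-05), and Vim, the mesenchymal filament vimentin, at 11015, 11567 and 11727 CPM in AXL KO, against 4733, 2149 and 2739 CPM in WT (1.91 ± 0.20, adjusted p = 9.87e-05). Ly6e, a lipid-anchored surface protein, varied little within either group, at 2105, 2179.8 and 2214 CPM in AXL KO, against 77.5, 77.8 and 74.7 CPM in WT (4.82 ± 0.13, adjusted p = 1.28e-07). The lysosomal protease Ctsd, the amyloid precursor protein gene App, the lipid desaturase Scd1, the protease inhibitor Cst3 and the glycolytic isomerase Gpi1 were also among the 12, with log2 fold changes of 2.25 ± 0.16, 2.17 ± 0.12, 2.34 ± 0.22, 2.22 ± 0.18 and 1.63 ± 0.18.

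Among the 12 genes that were lower in AXL KO by CPM, Ptgs2 stood apart. Ptgs2 (chromosome 1, 150100031 to 150108227) encodes cyclooxygenase 2, the inducible enzyme that starts prostaglandin synthesis, and it stood at 170.3, 157 and 179 CPM in AXL KO, against 8995, 24717 and 17289.7 CPM in WT. All 3 AXL KO libraries lay far below all 3 WT libraries (log2 fold change −6.54 ± 0.25, adjusted p = 5.86e-07), and in WT replicates 2 and 3 this gene took 2.42% and 1.92% of all counts. Akr1b3, an aldose reductase, stood at 90.8, 80.2 and 86.9 CPM in AXL KO, against 997, 4872 and 3969 CPM in WT (−4.96 ± 0.39, adjusted p = 2.42e-05; −5.66 without WT replicate 1). The chaperone genes Hspa4l, Hsph1 and Hspa5 were among the 12. Hspa4l and Hsph1, of the HSP110 type, had log2 fold changes of −1.95 ± 0.18 (adjusted p = 5.74e-05) and −1.25 ± 0.24 (adjusted p = 0.00236), and Hspa5, the BiP chaperone of the endoplasmic reticulum, one of −1.72 ± 0.16 (adjusted p = 5.96e-05). Hspa5 stood at 463, 493 and 508 CPM in AXL KO, against 1289.9, 2165 and 1489.7 CPM in WT, with no overlap. Cpe, a prohormone-processing carboxypeptidase, and Serinc3, a membrane protein, had log2 fold changes of −1.43 ± 0.13 (adjusted p = 4.47e-05) and −1.50 ± 0.10 (adjusted p = 1.19e-05).

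Several of the lower genes differed by less than 2-fold at a high level. Ldha, lactate dehydrogenase A, stood at 3579, 3846 and 3784 CPM in AXL KO, against 6106, 6098 and 6378 CPM in WT (−0.73 ± 0.11, adjusted p = 5.55e-04). Pkm, pyruvate kinase, stood at 7593, 7764 and 7768 CPM in AXL KO, against 10067, 10618 and 9406 CPM in WT (−0.38 ± 0.10, adjusted p = 0.0102), and its call was lost without WT replicate 2 (adjusted p = 0.0532) or WT replicate 3 (adjusted p = 0.0593). The elongation factor Eef1a1 was lower, with a log2 fold change of −0.49 ± 0.11 (adjusted p = 0.00654). The mitochondrially encoded mt-Nd1, a subunit of respiratory complex I, stood at 560.2, 581 and 597 CPM in AXL KO, against 838, 2038 and 1962 CPM in WT (−1.37 ± 0.24, adjusted p = 0.00144), and WT replicates 2 and 3 are also the libraries with the highest mitochondrial share, whose part in this was not tested.

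Interstitial matrix genes were mostly higher in AXL KO hypoxia. Of 36 tested members, 25 were higher and 9 lower in AXL KO (94.4% called, against 49.8% of all genes, 24.1% higher and 25.7% lower), with a median log2 fold change of 2.01. These counts were 21 and 6 without WT replicate 3. Col11a1, a fibrillar collagen, stood at 232, 268 and 251 CPM in AXL KO, against 0.204, 0.877 and 0.408 CPM in WT (9.20 ± 0.62, adjusted p = 1.24e-05). Col1a2, a chain of type I collagen, stood at 15.5, 17.7 and 16.2 CPM in AXL KO, against 0.123, 0.0219 and 0.117 CPM in WT (7.63 ± 0.79, adjusted p = 9.76e-05; 7.0 without WT replicate 2). Both were close to 0 in every WT library. The elastic fibre protein Fbln2 (2.30 ± 0.22, adjusted p = 5.96e-05) and the proteoglycan versican, Vcan (2.68 ± 0.16, adjusted p = 5.34e-06), were higher as well. The tenascins ran the other way: Tnc stood at 1.7, 2.13 and 1.89 CPM in AXL KO, against 24.7, 107 and 71.9 CPM in WT (−4.91 ± 0.41, adjusted p = 3.26e-05; −5.50 without WT replicate 1), and Tnn at 0.0218, 0.0607 and 0 CPM in AXL KO hypoxia, against 22.8, 59 and 51.8 CPM in WT hypoxia (−10.50 ± 0.65, adjusted p = 7.84e-06; −11.12 and −9.69 without AXL KO replicates 2 and 3).

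Of 22 tested laminin and basement membrane genes, 11 were higher and 7 lower in AXL KO (81.8% called, against 49.8% of all genes, 24.1% higher and 25.7% lower), with a median log2 fold change of 0.69. These counts were 8 and 7 without WT replicate 3. The paired chains of type IV collagen were lower: Col4a1 stood at 7.47, 4.09 and 4.05 CPM in AXL KO, against 463, 279 and 426 CPM in WT (−6.26 ± 0.31, adjusted p = 2.20e-06), and Col4a2 had a log2 fold change of −5.83 ± 0.33 (adjusted p = 4.65e-06). Lamb3, a laminin chain that anchors epithelium, was lower as well (−3.67 ± 0.26, adjusted p = 1.43e-05). Nid1, the linker protein nidogen, stood at 82.3, 87.7 and 80.9 CPM in AXL KO and had 0, 0 and 1 counts in WT, a ratio of 12212-fold (95% counting interval 2191 to 482388). The laminin receptor Dag1, dystroglycan, was higher at 1693, 1919 and 1856 CPM in AXL KO, against 469, 387 and 489 CPM in WT (2.03 ± 0.15, adjusted p = 2.02e-05).

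Of 43 tested extracellular proteases and inhibitors, 23 were higher and 12 lower in AXL KO (81.4% called, against 49.8% of all genes, 24.1% higher and 25.7% lower), with a median log2 fold change of 0.74. These counts were 10 and 9 without WT replicate 3 and 15 and 12 without WT replicate 2. Mmp14, a membrane-anchored collagenase, stood at 121, 152 and 145 CPM in AXL KO and had no count in WT hypoxia, at least 6789-fold higher (adjusted p = 2.06e-04). Adamts2, which trims procollagens, stood at 18, 22.9 and 21.2 CPM in AXL KO and had 0, 0 and 1 counts in WT, a ratio of 3029-fold (95% counting interval 543 to 119686). The secreted collagenase Mmp13 was nearly unread in AXL KO, with 1, 4 and 0 counts, against 217, 1435 and 448 counts in WT (−8.41 ± 0.88, adjusted p = 1.05e-04), where WT replicate 2 was the highest. Its value ran from −7.54 without AXL KO replicate 3 to −9.16 without AXL KO replicate 2, and was −9.02 and −7.65 without WT replicates 1 and 2. Adam12, a membrane protease, was lower (−2.82 ± 0.23, adjusted p = 2.83e-05).

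Of 24 tested integrins, 11 were higher and 3 lower in AXL KO (58.3% called, against 49.8% of all genes, 24.1% higher and 25.7% lower), with a median log2 fold change of 0.73. These counts were 7 and 2 without WT replicate 3. Itga7, a laminin receptor chain, stood at 67.2, 72.6 and 70.9 CPM in AXL KO, against 4.25, 3.22 and 3.31 CPM in WT (4.30 ± 0.27, adjusted p = 7.81e-06), and Itgb4, the hemidesmosome chain, was higher, with a log2 fold change of 3.13 ± 0.34 (adjusted p = 1.24e-04) (3.74 without WT replicate 1). The collagen receptor chain Itga2 was lower (−2.03 ± 0.19, adjusted p = 5.47e-05). Of 44 tested focal adhesion, ELMO and DOCK genes, 12 were higher and 11 lower in AXL KO (52.3% called, against 49.8% of all genes, 24.1% higher and 25.7% lower), with a median log2 fold change of −0.04. These counts were 8 and 9 without WT replicate 3. Among these the tensins Tns1 and Tns4 were lower. Tns1 stood at 19.4, 16 and 14.7 CPM in AXL KO, against 543, 943 and 1107 CPM in WT (−5.65 ± 0.24, adjusted p = 9.02e-07) and Tns4 at 2.29, 2.61 and 1.65 CPM in AXL KO, against 163, 308 and 289.9 CPM in WT (−6.83 ± 0.27, adjusted p = 7.98e-07). Ptk2, the focal adhesion kinase, was lower, with a log2 fold change of −1.30 ± 0.16 (adjusted p = 2.68e-04), and Dock6, an exchange factor for RAC and CDC42, was higher, with a log2 fold change of 4.03 ± 0.37 (adjusted p = 5.05e-05).

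**Figure D3:**
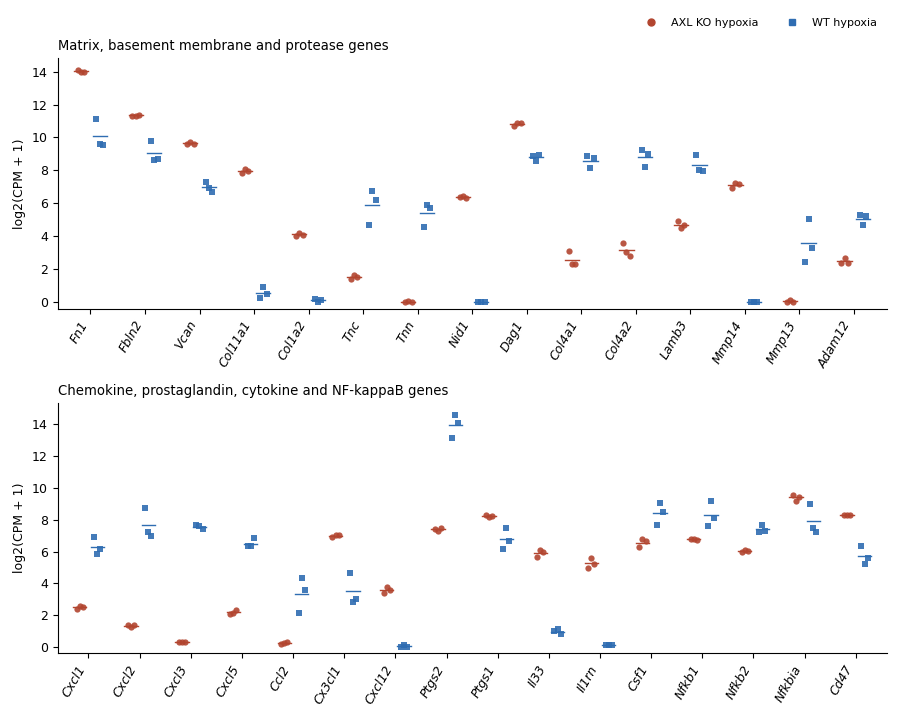
Levels in the hypoxia libraries as log2(CPM + 1), with AXL KO libraries as red circles, WT libraries as blue squares and group means as lines. In the upper panel Col4a1, Col4a2, Lamb3, Tnc and Tnn lie lower in AXL KO and Fn1, Col11a1, Nid1 and Mmp14 higher; in the lower panel the Cxcl1, Cxcl2, Cxcl3, Cxcl5, Ccl2 and Ptgs2 libraries of AXL KO lie below all WT libraries.

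The chemokine genes Cxcl1, Cxcl2, Cxcl3, Cxcl5 and Ccl2 were lower in AXL KO hypoxia. Of 14 tested members of the chemokine list, 4 were higher and 9 lower in AXL KO (92.9% called, against 49.8% of all genes, 24.1% higher and 25.7% lower), with a median log2 fold change of −2.71. These counts were 2 and 8 without WT replicate 3 and 2 and 8 without WT replicate 2. Cxcl1, Cxcl2 and Cxcl3, close relatives that bind CXCR2, lie in the same stretch of chromosome 5. The promoters of these genes are shown because the genes moved together, 300 bases each, 5′ to 3′ on the gene strand, from 250 bases before the transcription start to 50 bases from it (RefSeq, GRCm38.p6). Capitals mark matches to an NF-kappaB type motif, GGG and TTTCC with any 2 bases between them, read on both strands.
Cxcl1, chr5:90890995-90891294, + strand: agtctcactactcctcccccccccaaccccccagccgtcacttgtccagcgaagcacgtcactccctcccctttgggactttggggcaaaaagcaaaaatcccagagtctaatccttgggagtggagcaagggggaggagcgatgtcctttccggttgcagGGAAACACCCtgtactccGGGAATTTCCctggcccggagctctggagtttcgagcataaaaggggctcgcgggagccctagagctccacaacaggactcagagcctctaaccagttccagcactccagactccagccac
Cxcl2, chr5:90903649-90903948, + strand: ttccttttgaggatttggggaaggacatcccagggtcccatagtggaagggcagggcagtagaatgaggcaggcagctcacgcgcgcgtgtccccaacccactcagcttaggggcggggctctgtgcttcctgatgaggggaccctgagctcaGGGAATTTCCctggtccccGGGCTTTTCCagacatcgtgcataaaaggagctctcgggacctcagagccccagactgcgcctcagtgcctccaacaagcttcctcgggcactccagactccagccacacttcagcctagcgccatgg
Cxcl3, chr5:90785851-90786150, + strand: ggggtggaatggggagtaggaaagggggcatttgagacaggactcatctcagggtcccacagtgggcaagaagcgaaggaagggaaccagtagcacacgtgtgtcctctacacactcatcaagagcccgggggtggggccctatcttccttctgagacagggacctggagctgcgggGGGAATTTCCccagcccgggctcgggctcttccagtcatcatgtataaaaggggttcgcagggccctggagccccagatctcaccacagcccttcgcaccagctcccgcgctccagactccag
The letters GGGAATTTCC start 71 bases before the start of Cxcl1, 97 before that of Cxcl2 and 73 before that of Cxcl3. A second match lies 89 bases before the start of Cxcl1, on the opposite strand, and 78 bases before that of Cxcl2. Of 32851 RefSeq promoters of this length, 535 (1.63%) hold at least 1 match. Of 25 chemokine genes 18 have a promoter there and 5 of these hold a match (Ccl9, Ccl20, Cxcl1, Cxcl2 and Cxcl3). A match describes the letters and is no evidence of binding.

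Cxcl1 stood at 4.24, 5 and 4.65 CPM in AXL KO, against 121, 57 and 69 CPM in WT (−4.08 ± 0.24, adjusted p = 5.22e-06). Cxcl2 stood at 1.59, 1.4 and 1.57 CPM in AXL KO, against 427, 150.4 and 125 CPM in WT (−7.04 ± 0.38, adjusted p = 3.47e-06), and Cxcl3 at 0.239, 0.263 and 0.238 CPM in AXL KO, against 205, 191 and 167 CPM in WT (−9.51 ± 0.20, adjusted p = 6.56e-08). No AXL KO library came near a WT library for any of them. Their sequences are alike and the counting command, per the file headers, did not ask for fragments that map to several places, so that their levels are less certain than those of single-copy genes. Cxcl5, a further CXCR2 ligand, stood at 3.24, 3.42 and 4.07 CPM in AXL KO, against 79.5, 78.8 and 112 CPM in WT (−4.64 ± 0.19, adjusted p = 8.54e-07). Ccl2, a monocyte attractant, was lower at 0.152, 0.182 and 0.238 CPM in AXL KO, against 3.35, 18.8 and 10.8 CPM in WT (−5.46 ± 0.54, adjusted p = 7.52e-05; −6.13 without WT replicate 1).

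Cx3cl1 and Cxcl12 were among the 4 chemokines that were higher in AXL KO. Cx3cl1, the membrane-bound fractalkine, stood at 122, 128 and 130.0 CPM in AXL KO, against 23.7, 6.09 and 7.16 CPM in WT (3.64 ± 0.36, adjusted p = 7.33e-05; 4.28 without WT replicate 1). Cxcl12, the ligand of CXCR4, stood at 9.32, 12.5 and 11.1 CPM in AXL KO, against 0, 0.11 and 0 CPM in WT (8.90 ± 1.14, adjusted p = 2.95e-04). The value was 10.11 without WT replicate 2 and 8.30 without WT replicate 3. Its WT level rests on 5 counts in WT replicate 2, without which the WT libraries hold no count of it.

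Among NF-kappaB genes, Nfkb1 and Nfkb2 were lower and the inhibitor Nfkbia was higher. Of 22 tested members, 5 were higher and 7 lower in AXL KO (54.5% called, against 49.8% of all genes, 24.1% higher and 25.7% lower), with a median log2 fold change of 0.06. These counts were 1 and 3 without WT replicate 3. Nfkb1, which gives the p50 subunit, stood at 110.1, 108 and 106 CPM in AXL KO, against 196, 565 and 271 CPM in WT (−1.52 ± 0.25, adjusted p = 0.00118), and Nfkb2, which gives p52, at 62.5, 66.6 and 64.2 CPM in AXL KO, against 151, 198 and 158 CPM in WT (−1.38 ± 0.14, adjusted p = 8.12e-05). Nfkbia, the inhibitor I-kappaB alpha, stood at 752, 585 and 688 CPM in AXL KO, against 509, 179 and 146 CPM in WT (1.50 ± 0.35, adjusted p = 0.00648). The Nfkbia call was lost without WT replicate 3 (log2 fold change 1.16, adjusted p = 0.086), and its value was 2.08 without WT replicate 1.

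Of 25 tested genes of the interleukin-1, interleukin-6 and colony-stimulating families, 5 were higher and 12 lower in AXL KO (68% called, against 49.8% of all genes, 24.1% higher and 25.7% lower), with a median log2 fold change of −0.42. These counts were 2 and 10 without WT replicate 3. Csf1, the macrophage growth factor, stood at 75.9, 108 and 98.4 CPM in AXL KO, against 198, 524 and 359 CPM in WT (−1.84 ± 0.32, adjusted p = 0.00153). Its receptor gene Csf1r was nearly unread in AXL KO, at 0.196, 0.0607 and 0.0596 CPM, and stood at 5.01, 136 and 38.5 CPM in WT (−8.20 ± 1.19, adjusted p = 5.70e-04; −9.48 and −7.13 without WT replicates 1 and 2). Clcf1, a cytokine of the interleukin-6 type, was lower, with a log2 fold change of −2.32 ± 0.14 (adjusted p = 7.36e-06). Il33, a nuclear alarmin, and Il1rn, the interleukin-1 receptor antagonist, were higher instead. Il33 stood at 49.4, 68.8 and 62 CPM in AXL KO, against 0.981, 1.16 and 0.739 CPM in WT (5.97 ± 0.69, adjusted p = 1.79e-04). Il1rn stood at 30, 46.8 and 37 CPM in AXL KO, against 0.102, 0.0877 and 0.0972 CPM in WT (8.46 ± 1.42, adjusted p = 0.00126), a call that was lost without WT replicate 3 (adjusted p = 0.0597).

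Of 14 tested prostaglandin genes, Ptgs2 included, 2 were higher and 5 lower in AXL KO (50% called, against 49.8% of all genes, 24.1% higher and 25.7% lower), with a median log2 fold change of 0.14. These counts were 2 and 4 without WT replicate 3. The constitutive cyclooxygenase Ptgs1 was higher, at 310.2, 282 and 298 CPM in AXL KO, against 70.8, 177 and 99.3 CPM in WT (1.47 ± 0.23, adjusted p = 9.72e-04), and Abcc4, a pump that exports prostaglandins, was lower, at 2.53, 2.37 and 2.12 CPM in AXL KO, against 35, 54.8 and 40.2 CPM in WT (−4.18 ± 0.20, adjusted p = 1.73e-06). Of 15 tested immune surface ligands, 9 were higher and 2 lower in AXL KO (73.3% called, against 49.8% of all genes, 24.1% higher and 25.7% lower), with a median log2 fold change of 0.59. These counts were 6 and 0 without WT replicate 3, 6 and 1 without WT replicate 2 and 10 and 1 without AXL KO replicate 1. Cd47, the signal that restrains phagocytosis, stood at 309.9, 318 and 317 CPM in AXL KO, against 80.9, 36.9 and 46.3 CPM in WT (2.60 ± 0.21, adjusted p = 2.94e-05). Vsir, which encodes the checkpoint ligand VISTA, stood at 40.3, 42.4 and 40.9 CPM in AXL KO, against 1.51, 0.373 and 0.525 CPM in WT (5.92 ± 0.48, adjusted p = 2.98e-05; 6.52 without WT replicate 1).

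The hypoxia genes named for their known role did not all go the same way. The glycolysis genes Ldha and Pkm, given above, were lower in AXL KO. Those called among the genes that follow here were higher, by differing amounts. Vegfa, the vessel growth factor that HIF induces, stood at 2323, 1977 and 1989.6 CPM in AXL KO, against 1838, 1407 and 1276 CPM in WT (0.49 ± 0.18, adjusted p = 0.0456), and its call was lost without WT replicate 2 (adjusted p = 0.15) or 3 (adjusted p = 0.337). Slc2a1, the glucose transporter GLUT1, stood at 770.3, 720.1 and 746 CPM in AXL KO, against 766, 977 and 739 CPM in WT and was not called (−0.14 ± 0.13, adjusted p = 0.408). Higher in AXL KO were Adm, the vasoactive peptide adrenomedullin, at 738, 635 and 659.6 CPM in AXL KO, against 478, 182 and 221 CPM in WT (1.34 ± 0.26, adjusted p = 0.00283), and the protein disulfide oxidase Ero1l, at 4052, 3449 and 3503 CPM in AXL KO, against 1522, 529 and 518 CPM in WT (2.29 ± 0.30, adjusted p = 3.50e-04). Ddit4, the mTORC1 inhibitor REDD1, stood at 939.6, 1072 and 1011 CPM in AXL KO, against 338, 45.7 and 123 CPM in WT (3.02 ± 0.44, adjusted p = 5.65e-04). The WT libraries were far apart, and the value was 3.76 without WT replicate 1 and 2.31 without WT replicate 2.

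Of 19 tested carbonic anhydrases and acid exporters, 10 were higher and 4 lower in AXL KO (73.7% called, against 49.8% of all genes, 24.1% higher and 25.7% lower), with a median log2 fold change of 0.67. These counts were 7 and 2 without WT replicate 3 and 9 and 2 without WT replicate 2. Of 23 tested mitophagy and mitochondrial adaptation genes, a share near that of all genes was called: 9 were higher and 3 lower in AXL KO (52.2% called, against 49.8% of all genes, 24.1% higher and 25.7% lower), with a median log2 fold change of 0.27. These counts were 6 and 0 without WT replicate 3 and 9 and 1 without WT replicate 2. The promoters of Car9 and Bnip3, both known HIF targets, are shown for the core of the hypoxia response element, ACGTG or its reverse complement CACGT, in capitals (RefSeq, GRCm38.p6, 5′ to 3′ on the gene strand).
Car9, chr4:43506776-43507075, + strand: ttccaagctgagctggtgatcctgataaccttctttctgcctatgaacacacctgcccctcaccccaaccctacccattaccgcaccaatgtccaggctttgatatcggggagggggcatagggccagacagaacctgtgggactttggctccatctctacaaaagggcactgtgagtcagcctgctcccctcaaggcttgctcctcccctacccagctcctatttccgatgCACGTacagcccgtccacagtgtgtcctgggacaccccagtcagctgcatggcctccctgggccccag
Bnip3, chr7:138909457-138909756, − strand: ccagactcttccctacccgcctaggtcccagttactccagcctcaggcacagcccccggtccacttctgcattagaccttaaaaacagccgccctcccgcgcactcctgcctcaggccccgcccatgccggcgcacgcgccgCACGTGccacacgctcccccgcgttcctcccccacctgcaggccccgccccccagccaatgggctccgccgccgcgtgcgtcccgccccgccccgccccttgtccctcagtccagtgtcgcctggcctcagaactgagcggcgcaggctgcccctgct
In Car9 the match starts 18 bases before the transcription start on the opposite strand. In Bnip3 matches on both strands overlap, starting 107 and 108 bases before it. The core is common, being held by 6447 of 32851 promoters (19.6%). Of the mitophagy list 18 genes have a promoter there and 8 of these hold a match. For the carbonic anhydrase list these numbers are 16 and 6. Car12, Bnip3l and Fundc1 are not among the genes with a match. As above, a match is no evidence of binding.

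Car9, a carbonic anhydrase on the cell surface, stood at 11.1, 8.46 and 9.79 CPM in AXL KO, against 1.49, 0.745 and 0.875 CPM in WT (3.28 ± 0.49, adjusted p = 6.88e-04). Car12, its relative, stood at 105, 89.8 and 90.3 CPM in AXL KO, against 31.9, 29.5 and 28 CPM in WT (1.67 ± 0.20, adjusted p = 1.93e-04). Both groups were apart for each gene. The mitophagy receptors Bnip3 and Bnip3l were higher as well, Bnip3 at 722, 723 and 715 CPM in AXL KO, against 254, 215 and 285 CPM in WT (1.53 ± 0.13, adjusted p = 3.33e-05) and Bnip3l with a log2 fold change of 0.65 ± 0.12 (adjusted p = 0.00214). Fundc1, a further mitophagy receptor, was close to 0 in WT, at 59, 54 and 63.1 CPM in AXL KO, against 0.347, 0.482 and 0.836 CPM in WT (6.78 ± 0.55, adjusted p = 2.83e-05). Emb, which encodes embigin, a partner of lactate transporters like basigin, stood at 371, 381 and 385 CPM in AXL KO, against 23.6, 15.5 and 16.6 CPM in WT (4.37 ± 0.19, adjusted p = 9.02e-07).

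Of 26 tested angiogenic factors, 13 were higher and 6 lower in AXL KO (73.1% called, against 49.8% of all genes, 24.1% higher and 25.7% lower), with a median log2 fold change of 1.00. These counts were 8 and 4 without WT replicate 3. The platelet-derived growth factors Pdgfc and Pdgfd were among those higher, Pdgfc at 245, 262 and 262 CPM in AXL KO, against 29.3, 10.1 and 14.7 CPM in WT (3.96 ± 0.28, adjusted p = 1.54e-05) and Pdgfd with a log2 fold change of 2.96 ± 0.28 (adjusted p = 5.77e-05). Thbs1, the vessel inhibitor thrombospondin 1, stood at 399, 456 and 441 CPM in AXL KO, against 159, 90.3 and 46.8 CPM in WT (2.31 ± 0.30, adjusted p = 3.05e-04). Kdr, a VEGF receptor, stood at 15.2, 13.9 and 15.5 CPM in AXL KO, against 0.0409, 0 and 0.0583 CPM in WT (8.78 ± 0.85, adjusted p = 6.56e-05; 7.98 without WT replicate 2), while the endothelial markers Pecam1 and Cdh5 reached at most 0.68 and 0.614 CPM in any hypoxia library.

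Of 31 tested receptor tyrosine kinases outside the TAM family, 15 were higher and 5 lower in AXL KO (64.5% called, against 49.8% of all genes, 24.1% higher and 25.7% lower), with a median log2 fold change of 0.62. These counts were 12 and 4 without WT replicate 3. Ntrk3, the neurotrophin-3 receptor, stood at 449, 443 and 443 CPM in AXL KO, against 11.8, 6.86 and 11.6 CPM in WT (5.50 ± 0.22, adjusted p = 8.05e-07). Egfr, a partner of ErbB2, stood at 32.7, 31.5 and 32.2 CPM in AXL KO, against 2.25, 10.1 and 4.01 CPM in WT (2.85 ± 0.38, adjusted p = 3.69e-04). The ephrin receptor gene Epha2 was lower (−1.43 ± 0.15, adjusted p = 9.02e-05), as was Met, the hepatocyte growth factor receptor (−1.16 ± 0.30, adjusted p = 0.0117), whose call was lost without WT replicate 3 (adjusted p = 0.054). Ddr2, a collagen receptor kinase, stood at 1.52, 1.38 and 1.31 CPM in AXL KO, against 7.83, 38.7 and 19.9 CPM in WT (−3.68 ± 0.42, adjusted p = 1.60e-04; −4.27 without WT replicate 1).

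Erbb2, the gene whose activated rat form drives these tumours, gave no stable difference. It stood at 621, 627 and 548 CPM in AXL KO, against 2227, 123 and 337 CPM in WT, so that WT replicate 1 lay above and WT replicates 2 and 3 below all AXL KO libraries. The log2 fold change was 0.40 ± 0.63 (adjusted p = 0.625), with 1.57 (adjusted p = 0.0018) without WT replicate 1 and −0.53 (adjusted p = 0.465) without WT replicate 2. Whether the fragments came from the rat transgene or the mouse gene was not tested.

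Of 24 tested ERK feedback genes, 7 were higher and 7 lower in AXL KO (58.3% called, against 49.8% of all genes, 24.1% higher and 25.7% lower), with a median log2 fold change of 0.25. These counts were 4 and 7 without WT replicate 3 and 11 and 8 without WT replicate 1. The ERK phosphatases Dusp4 and Dusp6 were lower, Dusp4 at 30.5, 27.5 and 26.1 CPM in AXL KO, against 180.0, 123 and 81.3 CPM in WT (−2.12 ± 0.23, adjusted p = 1.15e-04) and Dusp6 with a log2 fold change of −1.22 ± 0.22 (adjusted p = 0.00169), and so was Etv4, an ETS factor induced by ERK (−1.47 ± 0.24, adjusted p = 9.79e-04). The inhibitors Errfi1, which binds EGF receptors, and Spry1 were higher: Errfi1 stood at 317, 364 and 362 CPM in AXL KO, against 55.7, 56.4 and 40.1 CPM in WT (2.79 ± 0.19, adjusted p = 1.42e-05), and Spry1 had 3.27 ± 0.58 (adjusted p = 0.00161) (4.16 without WT replicate 1). Of 30 tested genes of the PI3K, AKT and mTOR list, 8 were higher and 8 lower in AXL KO (53.3% called, against 49.8% of all genes, 24.1% higher and 25.7% lower), with a median log2 fold change of 0.04. These counts were 6 and 3 without WT replicate 3. Inpp4b, a phosphatase that dampens PI3K signalling, was almost unread in AXL KO, at 0.348, 0.344 and 0.496 CPM in AXL KO, against 238, 392 and 413 CPM in WT (−9.72 ± 0.28, adjusted p = 1.97e-07). Foxo1, a transcription factor that AKT inhibits, was higher (2.92 ± 0.34, adjusted p = 1.82e-04; 3.52 without WT replicate 1), and Akt1 was not called (0.08 ± 0.12, adjusted p = 0.626).

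Of 39 tested epithelial and mesenchymal regulators, 12 were higher and 14 lower in AXL KO (66.7% called, against 49.8% of all genes, 24.1% higher and 25.7% lower), with a median log2 fold change of −0.04. These counts were 11 and 11 without WT replicate 3. Twist2, a mesenchymal factor, stood at 32.7, 34.5 and 36.4 CPM in AXL KO and had 0, 2 and 0 counts in WT, a ratio of 2522-fold (95% counting interval 698 to 20832). Zeb1, a repressor of epithelial genes, stood at 252, 230.3 and 237 CPM in AXL KO, against 147, 95.5 and 116 CPM in WT (1.02 ± 0.16, adjusted p = 9.03e-04), and Snai1, another such repressor, was not called (0.24 ± 0.23, adjusted p = 0.423). Lower in AXL KO were Tfap2c, a luminal factor, at 0.936, 0.304 and 0.616 CPM in AXL KO, against 104, 152 and 99.6 CPM in WT (−7.68 ± 0.37, adjusted p = 2.01e-06), Sox10, a factor of neural crest and mammary progenitors, at 1.31, 1.09 and 1.05 CPM in AXL KO, against 144, 82.9 and 136 CPM in WT (−6.67 ± 0.23, adjusted p = 3.47e-07), and the epithelial factor Grhl2 (−4.14 ± 0.54, adjusted p = 3.15e-04; −3.38 and −4.76 without WT replicates 1 and 2).

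Some junction genes were lower and others higher. Cdh1, which encodes E-cadherin, stood at 5.36, 3.06 and 3.67 CPM in AXL KO, against 43.9, 21.5 and 19.2 CPM in WT (−2.75 ± 0.35, adjusted p = 3.01e-04), and Epcam, an epithelial surface protein, at 11.2, 6.52 and 7.41 CPM in AXL KO, against 42.5, 97 and 39.8 CPM in WT (−2.75 ± 0.36, adjusted p = 3.49e-04). Dsp, the desmosome plaque protein, stood at 38.2, 26.2 and 27.1 CPM in AXL KO, against 432, 353 and 314 CPM in WT (−3.60 ± 0.26, adjusted p = 1.58e-05), and the basal keratin Krt14 at 1.61, 1.52 and 1.61 CPM in AXL KO, against 127, 44.4 and 54 CPM in WT (−5.40 ± 0.32, adjusted p = 5.56e-06). Of 38 tested junction genes, 12 were higher and 9 lower in AXL KO (55.3% called, against 49.8% of all genes, 24.1% higher and 25.7% lower), with a median log2 fold change of 0.05. These counts were 7 and 7 without WT replicate 3. Perp, a desmosome protein, was higher at 1055, 1102 and 1104 CPM in AXL KO, against 106, 81 and 69.8 CPM in WT (3.69 ± 0.16, adjusted p = 9.02e-07), as was the gap junction gene Gja1 (2.95 ± 0.41, adjusted p = 4.23e-04; 3.74 without WT replicate 1). For the keratins Krt8 and Krt18 the WT libraries split. Krt18 (0.83 ± 0.29, adjusted p = 0.0389) was not called without WT replicate 2 (0.56, adjusted p = 0.194) or 3 (0.58, adjusted p = 0.246). Its call was also lost without AXL KO replicate 1, 2 or 3 (adjusted p = 0.0535, 0.0532 and 0.0674). With 1 library left out, the call held only without WT replicate 1 (1.39).

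Of 31 tested WNT genes, 12 were higher and 10 lower in AXL KO (71% called, against 49.8% of all genes, 24.1% higher and 25.7% lower), with a median log2 fold change of 0.80. These counts were 7 and 9 without WT replicate 3. Wnt5a, a non-canonical ligand, stood at 9.93, 11.7 and 11.6 CPM in AXL KO with no count in WT, at least 539.8-fold higher (adjusted p = 1.81e-04). Wnt7a was lower (−5.43 ± 0.51, adjusted p = 5.86e-05), and so was Lgr6, a receptor for R-spondins, at 0.631, 0.587 and 0.377 CPM in AXL KO, against 117, 21.4 and 31.5 CPM in WT (−6.35 ± 0.55, adjusted p = 3.94e-05; −5.61 without WT replicate 1). Axin2, a target and brake of canonical WNT signalling, was higher (2.03 ± 0.41, adjusted p = 0.00345).

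Of 43 tested TGF-beta and BMP genes, 21 were higher and 9 lower in AXL KO (69.8% called, against 49.8% of all genes, 24.1% higher and 25.7% lower), with a median log2 fold change of 0.55. These counts were 13 and 9 without WT replicate 3. Tgfb1 stood at 113, 118 and 116 CPM in AXL KO, against 38, 21.4 and 22.3 CPM in WT (2.14 ± 0.20, adjusted p = 5.64e-05). Fstl3, which binds and blocks activins, stood at 872, 757 and 779 CPM in AXL KO, against 41.1, 31.4 and 31.4 CPM in WT (4.54 ± 0.20, adjusted p = 1.17e-06), while Inhba, which encodes the activin A chain, was lower at 25.7, 29.9 and 30.1 CPM in AXL KO, against 127, 338 and 154 CPM in WT (−2.71 ± 0.27, adjusted p = 7.52e-05). Bmp4 stood at 4.22, 5.97 and 5.52 CPM in AXL KO with no count in WT, at least 256-fold higher (adjusted p = 7.06e-04). Ltbp2, a microfibril protein, was lower at 1.04, 1.56 and 1.31 CPM in AXL KO, against 85.9, 101 and 82.7 CPM in WT (−6.10 ± 0.20, adjusted p = 2.84e-07). Of 45 tested guidance genes, 21 were higher and 8 lower in AXL KO (64.4% called, against 49.8% of all genes, 24.1% higher and 25.7% lower), with a median log2 fold change of 0.60. These counts were 14 and 7 without WT replicate 3. Those higher included Robo1, a SLIT receptor, at 83.9, 96.1 and 90.3 CPM in AXL KO, against 0.0817, 0.0219 and 0.0389 CPM in WT (10.74 ± 0.87, adjusted p = 2.83e-05), and Unc5b, a netrin receptor (4.94 ± 0.36, adjusted p = 1.68e-05; 5.54 without WT replicate 1).

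**Figure D4:**
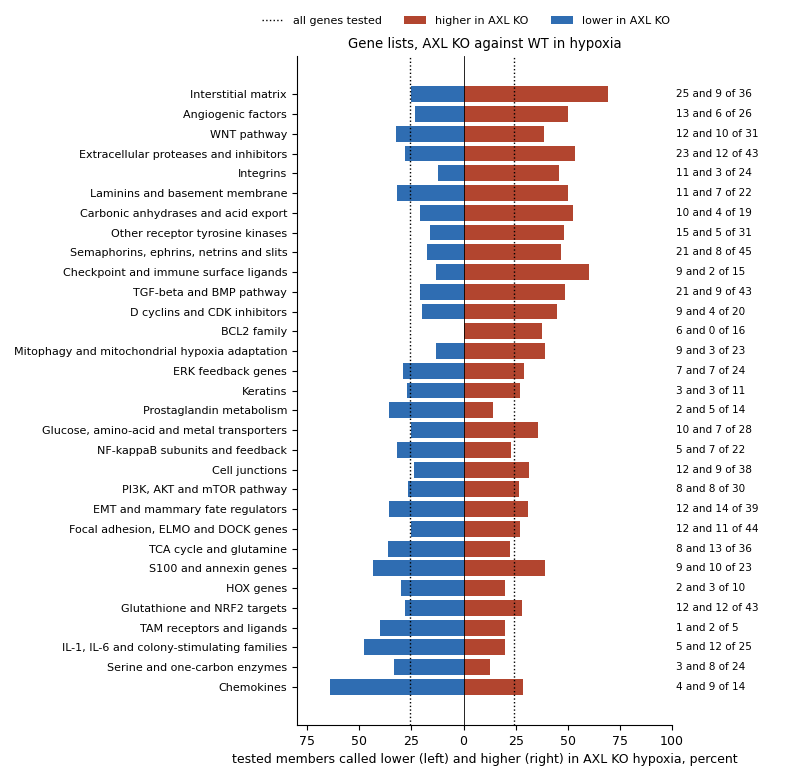
Share of the tested members of each of 31 gene lists that were called higher (red, right) or lower (blue, left) in AXL KO against WT hypoxia, in percent, ordered by median log2 fold change, with the counts printed at the right. Dotted lines mark the shares over all tested genes (24.1% higher, 25.7% lower); the interstitial matrix list lies at the top and the chemokines at the bottom.

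Cell cycle inhibitors at 1 locus had no count in AXL KO. Cdkn2a, which encodes the CDK inhibitor p16 and ARF, had 0, 0 and 0 counts in AXL KO hypoxia and 1500, 3166 and 2827 in WT hypoxia, and Cdkn2b, which encodes p15, had 0, 0 and 0 counts in AXL KO hypoxia and 2550, 3128 and 2929 in WT hypoxia. They were at least 2493-fold and 2863-fold lower in AXL KO (adjusted p = 5.22e-06 and 8.09e-07). Both also had 0 counts in all 3 AXL KO normoxia libraries. On chromosome 4 (GRCm38) Cdkn2a lies at 89274471 to 89294653 and Cdkn2b at 89306289 to 89311032. Coding genes on either side of them, Mtap (89137122 to 89181081) and Dmrta1 (89679436 to 89694772), were chosen after their values were seen and were both read in AXL KO. Mtap stood at 105, 121 and 124 CPM in AXL KO, against 45, 81.8 and 64.6 CPM in WT (0.91 ± 0.21, adjusted p = 0.00697; adjusted p = 0.0556 without WT replicate 3), and Dmrta1 at 2, 2.45 and 2.16 CPM in AXL KO, against 0.0613, 0.0877 and 0.117 CPM in WT (4.52 ± 0.70, adjusted p = 7.99e-04).

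Of 20 tested D cyclins and CDK inhibitors, 9 were higher and 4 lower in AXL KO (65% called, against 49.8% of all genes, 24.1% higher and 25.7% lower), with a median log2 fold change of 0.32. These counts were 6 and 3 without WT replicate 3. Ccnd2, cyclin D2, stood at 51.5, 52.1 and 50.7 CPM in AXL KO and had 1, 0 and 0 counts in WT, a ratio of 7507-fold (95% counting interval 1347 to 296565). Ccnd1, cyclin D1, stood at 309, 338 and 335 CPM in AXL KO, against 247, 85.8 and 150.4 CPM in WT (1.15 ± 0.26, adjusted p = 0.00541). Of 16 tested BCL2 family genes, 6 were higher and 0 lower in AXL KO (37.5% called, against 49.8% of all genes, 24.1% higher and 25.7% lower), with a median log2 fold change of 0.31. These counts were 1 and 0 without WT replicate 3, 5 and 2 without WT replicate 1, 3 and 0 without WT replicate 2 and 6 and 1 without AXL KO replicate 2. Bbc3, the pro-apoptotic PUMA, stood at 58.6, 54.7 and 58.2 CPM in AXL KO, against 15.7, 9.12 and 9.76 CPM in WT (2.35 ± 0.23, adjusted p = 6.56e-05).

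In hypoxia, some genes were read in 1 genotype only. Of 15216 tested genes, 181 had no count in AXL KO hypoxia and 100 had none in WT hypoxia, most of them at low levels in the other genotype. By a criterion chosen after the values were seen (0 counts in all 3 hypoxia libraries of a genotype and a mean of at least 10 CPM in the other), 15 genes lacked counts in AXL KO hypoxia and 19 in WT hypoxia. Of these genes, 10 of the 15 also had no count in the 3 AXL KO normoxia libraries and 7 of the 19 none in the 3 WT normoxia libraries. The rest were nearly unread there too, with at most 5 counts in any normoxia library of that genotype. Mmp14, for example, had 3, 1 and 2 counts in WT normoxia, against 9836, 11753 and 12254 in AXL KO normoxia. Adam22, chosen as 1 of these, an adhesion protein of the ADAM family, had 0, 0 and 0 counts in AXL KO hypoxia, against 18576, 18531 and 24414 counts in WT hypoxia, at least 20465-fold lower (adjusted p = 2.84e-07).

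Of 36 tested TCA cycle and glutamine genes, 8 were higher and 13 lower in AXL KO (58.3% called, against 49.8% of all genes, 24.1% higher and 25.7% lower), with a median log2 fold change of −0.10. These counts were 3 and 6 without WT replicate 3 and 5 and 9 without WT replicate 2. Glul, glutamine synthetase, stood at 396, 411 and 421 CPM in AXL KO, against 70.6, 30 and 36.6 CPM in WT (3.26 ± 0.23, adjusted p = 1.55e-05). The isocitrate dehydrogenases Idh1 and Idh2 went opposite ways. The mitochondrial Idh2 was higher (2.12 ± 0.28, adjusted p = 3.50e-04), and the cytosolic Idh1 was lower, at 79.2, 94 and 88.6 CPM in AXL KO, against 309, 498 and 653 CPM in WT (−2.42 ± 0.22, adjusted p = 5.07e-05). Me1, the cytosolic malic enzyme, which like Idh1 makes NADPH, was lower at 237, 227 and 237 CPM in AXL KO, against 693, 1026 and 1138 CPM in WT (−2.00 ± 0.16, adjusted p = 2.42e-05).

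Of 43 tested glutathione genes and NRF2 targets, 12 were higher and 12 lower in AXL KO (55.8% called, against 49.8% of all genes, 24.1% higher and 25.7% lower), with a median log2 fold change of −0.31. These counts were 10 and 7 without WT replicate 3 and 15 and 19 without WT replicate 1. Slc7a11, the cystine importer, was lower, at 0.218, 0.364 and 0.496 CPM in AXL KO, against 9.28, 8.92 and 13.5 CPM in WT (−4.88 ± 0.36, adjusted p = 1.94e-05), as was Txn1, thioredoxin (−1.82 ± 0.18, adjusted p = 7.60e-05). Gpx3, a secreted glutathione peroxidase, was higher, at 48.9, 43.9 and 40.7 CPM in AXL KO, against 0.49, 0.175 and 0.408 CPM in WT (7.02 ± 0.65, adjusted p = 5.47e-05), as was Mgst1, a membrane glutathione transferase (3.58 ± 0.37, adjusted p = 9.96e-05). Mt1, the metal-binding metallothionein 1, stood at 2033, 2053 and 1868 CPM in AXL KO, against 407, 107 and 137 CPM in WT (3.45 ± 0.32, adjusted p = 5.84e-05; 4.05 without WT replicate 1). Of 24 tested serine and one-carbon enzymes, 3 were higher and 8 lower in AXL KO (45.8% called, against 49.8% of all genes, 24.1% higher and 25.7% lower), with a median log2 fold change of −0.47. These counts were 1 and 7 without WT replicate 3. Phgdh, the first enzyme of serine synthesis, was lower, with a log2 fold change of −1.16 ± 0.16 (adjusted p = 5.03e-04) and Shmt2, which makes mitochondrial one-carbon units, lower, with a log2 fold change of −1.29 ± 0.16 (adjusted p = 2.63e-04).

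Of 28 tested transporters, 10 were higher and 7 lower in AXL KO (60.7% called, against 49.8% of all genes, 24.1% higher and 25.7% lower), with a median log2 fold change of 0.08. These counts were 10 and 5 without WT replicate 3. Slc38a1, a glutamine importer, stood at 300.4, 314 and 301 CPM in AXL KO, against 0.96, 1.12 and 1.59 CPM in WT (7.98 ± 0.35, adjusted p = 1.17e-06), and Slc7a2, an importer of arginine and lysine, at 94.4, 83.3 and 85.2 CPM in AXL KO, against 0.429, 0.0877 and 0 CPM in WT (10.22 ± 1.11, adjusted p = 1.28e-04; 11.49 and 8.70 without WT replicates 1 and 3). Tfrc, the transferrin receptor that brings in iron, was lower at 98, 60.6 and 62.3 CPM in AXL KO, against 494, 527 and 402 CPM in WT (−2.71 ± 0.34, adjusted p = 2.49e-04). Of 23 tested S100 and annexin genes, 9 were higher and 10 lower in AXL KO (82.6% called, against 49.8% of all genes, 24.1% higher and 25.7% lower), with a median log2 fold change of −0.11. These counts were 5 and 6 without WT replicate 3. S100a4, a calcium-binding protein tied to cell motility, was lower, with a log2 fold change of −2.06 ± 0.28 (adjusted p = 4.36e-04).

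Most hypoxia differences were also there in normoxia. The same test on the 6 normoxia libraries, which share none with the hypoxia comparison, called 12565 of 15866 genes (79.2%). Among 14442 genes tested in both, 5868 were called in the same direction, which is 80.8% of those called in hypoxia and 51% of those called in normoxia. A further 583 were called in opposite directions (8.03% and 5.06%). Without WT hypoxia replicate 3 the count in the same direction was 3372, with 3971 genes called in hypoxia. Axl had a log2 fold change of −8.19 ± 0.12 in normoxia and a difference between the oxygen levels, hypoxia minus normoxia, of 0.20 ± 0.22 (adjusted p = 0.557). Col4a1, Fn1 and Sox10 likewise showed no called difference (−0.22 ± 0.32, −0.80 ± 0.31 and 0.24 ± 0.30, adjusted p = 0.666, 0.0643 and 0.609).

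For 4747 of 16767 genes (28.3%) the genotype difference itself differed between the oxygen levels, 2350 in the positive and 2397 in the negative direction. These included 2804 (37%) of the genes called in hypoxia. The count rests on the uneven WT hypoxia libraries, being 2752 without WT replicate 2, 1783 without WT replicate 3 and 6465 without WT replicate 1. For the CXCR2 ligand Cxcl5 the direction turned: AXL KO was lower in hypoxia (−4.64) and higher in normoxia (3.02 ± 0.16), a difference of −7.62 ± 0.39 (adjusted p = 3.81e-08). Gper1, an oestrogen receptor of the G protein-coupled kind, turned as well, with 4.57, 4.33 and 3.93 CPM in AXL KO, against 61.1, 384 and 162 CPM in WT (−5.19 ± 0.45, adjusted p = 4.25e-05) and a normoxia value of 4.96 ± 0.26; in hypoxia it was −5.84 and −4.54 without WT replicates 1 and 2. For Ptgs2, Cxcl1, Cxcl2 and Cxcl3 the difference between the oxygen levels was also negative, at −4.93 ± 0.36, −5.14 ± 0.34, −5.50 ± 0.51 and −6.67 ± 0.64 (adjusted p = 4.21e-07, 1.60e-07, 3.84e-06 and 4.94e-06). In normoxia their values were −1.57 ± 0.16, 1.10 ± 0.12, −1.50 ± 0.21 and −2.80 ± 0.38. Mertk, not called in hypoxia, was higher in AXL KO in normoxia (2.35 ± 0.09, adjusted p = 6.97e-11), and Pros1 changed direction, with 0.55 ± 0.07 in normoxia (oxygen differences −2.29 ± 0.22 and −3.78 ± 0.36, adjusted p = 2.32e-06 and 4.68e-06).

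Of other genes, Fam19a5 and Cyp2s1 moved the opposite way, and Ntrk3, Egfr and Lce1g had smaller differences in hypoxia. Prss35 and Sprr2e had negative oxygen differences, like the genes above, but neither was tested in normoxia. Fam19a5, a secreted neurokine-like protein, stood at 23.3, 25.9 and 23 CPM in AXL KO, against 0.307, 0.175 and 0.331 CPM in WT (6.46 ± 0.57, adjusted p = 4.26e-05), with no called difference in normoxia (0.16 ± 0.14, adjusted p = 0.313) and an oxygen difference of 6.33 ± 1.13 (adjusted p = 6.73e-04). Cyp2s1, a cytochrome P450, stood at 49.8, 41.1 and 41.6 CPM in AXL KO, against 0.0409, 0.0219 and 0.0583 CPM in WT (9.82 ± 1.00, adjusted p = 9.10e-05) and differed by 6.58 ± 1.90 (adjusted p = 0.0167). Ntrk3 and Egfr were higher in AXL KO under both oxygen levels but less so in hypoxia, by −4.91 ± 0.35 and −4.07 ± 0.42 (adjusted p = 1.64e-07 and 4.84e-06). The cornified envelope gene Lce1g stood at 1.02, 0.709 and 0.775 CPM in AXL KO, against 119, 11.9 and 20.5 CPM in WT (−5.22 ± 0.65, adjusted p = 2.53e-04; −4.22 and −5.89 without WT replicates 1 and 2), a smaller deficit than in normoxia (−11.29 ± 0.97). Prss35, a secreted serine protease relative, stood at 0.0218, 0.0607 and 0.0794 CPM in AXL KO, against 16.6, 254 and 190.2 CPM in WT (−10.61 ± 1.28, adjusted p = 2.14e-04; −11.82 and −9.87 without WT replicates 1 and 2), with an oxygen difference of −7.34 ± 2.51 (adjusted p = 0.0472) that kept its call in 2 of 12 leave-one-out fits. Sprr2e, another envelope gene, has near-identical copies that make its count uncertain. It had no count in AXL KO hypoxia and 291, 1662 and 972 counts in WT hypoxia, at least 973-fold lower in AXL KO (adjusted p = 6.11e-05).

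**Figure D5:**
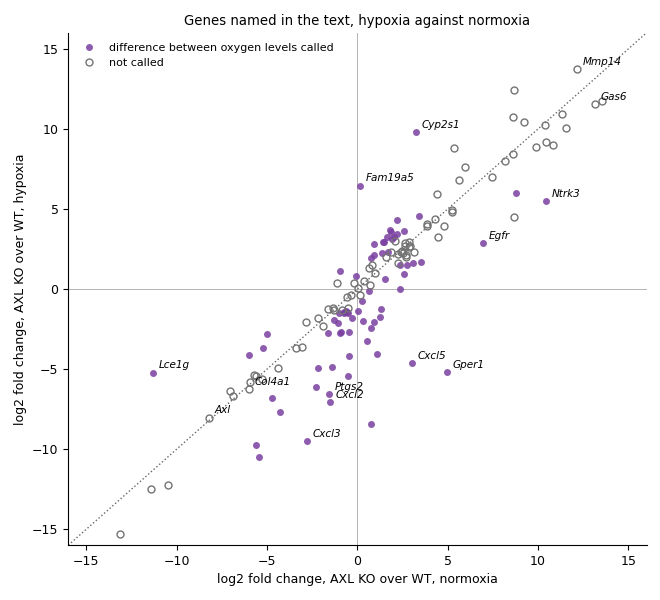
Log2 fold change of AXL KO over WT for 148 genes named in the text, with hypoxia on the y axis and normoxia on the x axis; the dotted line marks equal values. Filled points are genes whose genotype difference was called as differing between oxygen levels, and Cxcl5 and Gper1 lie below 0 in hypoxia and above 0 in normoxia.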

How the data were processed

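Total RNA of 12 mouse samples was sequenced, and each sample has a deposited table of fragment counts per gene. Per the file headers, these counts were made by the authors with featureCounts 1.6.0 against the Ensembl 93 annotation of GRCm38, with strand setting 2 (reverse) and properly paired fragments only; STAR 2.5.1b and DESeq2 1.12.3 are named in the submitters' processing notes, which give featureCounts as 1.4.6. Counts were used as deposited and groups were taken from the titles.

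Counts were filtered with filterByExpr, scaled by TMM and fitted with voomLmFit (edgeR 4.0.16, limma 3.58.1, R 4.3.3) with 1 weight per group, since the WT hypoxia libraries spread widely. This stands in place of edgeR's quasi-likelihood test, which was run as an alternative. Calls were made where p, adjusted by Benjamini and Hochberg over the tested genes, was under 0.05. CPM are counts scaled to a common total with TMM factors. Where a group had 0 counts, a lower bound used 3 counts over the group; with 1 to 3 counts a ratio with its 95% counting interval is given. Bounds and intervals cover counting error only.

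Genes named were drawn from the TAM genes, the 12 higher and 12 lower coding genes with the largest CPM difference among called genes without overlap, up to 2 higher and 2 lower members of each of 31 lists by fold change (mean of at least 10 CPM in the higher group), key genes of the lists, and the 6 most positive and 6 most negative differences between oxygen levels. Not every gene that these rules pick is named. Any other gene was chosen after its values were seen. The members and lists were chosen with earlier results of these data known. The fit was tested on simulated data. Promoters came from RefSeq (GRCm38.p6).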

Additional observations from a re-analysis of the deposited data

Results flagged for a closer look

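For 75 of the 151 genes named, the difference between AXL KO and WT was not the same in hypoxia as in normoxia, by the test of that difference itself (edgeR's voomLmFit over all 12 libraries, adjusted p under 0.05). Over all genes in that test, 4747 of 16767 (28.3%) were called. Named genes were picked in part for extreme values of this difference or for large hypoxia differences. Their share and the split of signs therefore partly reflect that choice. The values below are log2 fold changes of AXL KO over WT in hypoxia minus the same in normoxia. They were negative for 51 genes and positive for 24, and 46 kept the call in all 12 fits that left out 1 library. Prss35 and Cx3cl1 kept it in 2 of the 12, Bnip3 in 4, and Csf1r, Epcam, Etv4 and Scd1 in 6. All others kept it in at least 9.

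Large negative values included those of Gper1 (−10.10), Mmp13 (−9.14), Cxcl5 (−7.62), Csf1r (−7.11), Cxcl3 (−6.67), Cxcl2 (−5.50), Cxcl1 (−5.14), Ptgs2 (−4.93) and Ccl2 (−4.88). Il33 (−2.78), Csf1 (−1.49), Ptgs1 (−1.24), Abcc4 (−3.67), Nfkb1 (−0.94) and Nfkb2 (−0.69) were negative too. The envelope gene Sprr2e had −11.04, Prss35 −7.34, the matrix genes Tnn −5.03, Ltbp2 −3.78 and Spp1 −1.43, and the adhesion genes Tns4 −2.06, Itga2 −2.93, Cdh1 −1.74 and Epcam −1.06. Sprr2e, Prss35 and Csf1r were not tested in normoxia. Sprr2e had 0 counts in AXL KO hypoxia, 1, 0 and 0 in AXL KO normoxia and 0 in WT normoxia. With such counts its value is not a measured size.

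Among signalling genes the values were −4.91 for Ntrk3, −4.07 for Egfr, −0.79 for Epha2, −3.78 for Pros1, −2.29 for Mertk, −4.06 for Inpp4b, −1.01 for Dusp4, −2.46 for Dusp6, −0.67 for Etv4, −2.23 for Inhba and −3.37 for Tfap2c. Among metabolic and stress genes they were −2.76 for Akr1b3, −2.94 for Hspa5, −0.63 for Hspa4l, −3.12 for Idh1, −2.26 for Me1, −3.42 for Slc7a11, −1.78 for Tfrc, −0.76 for Slc2a1, −0.97 for Ldha, −1.34 for mt-Nd1, −1.80 for Car12, −0.78 for Bnip3, −0.82 for Bnip3l, −1.64 for Mtap, −0.67 for Cpe and −0.43 for Serinc3.

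The positive values were led by Cyp2s1 (6.58), Fam19a5 (6.33) and Lce1g (6.11). Matrix and adhesion genes followed, with Adam12 (2.20), Itga7 (2.13), Itgb4 (1.28), Perp (1.91), Gja1 (1.56), Vim (1.17) and Krt18 (0.96). Regulators were Ccnd1 (2.14), Grhl2 (1.92), Errfi1 (1.91), Ddr2 (1.59), Foxo1 (1.51), Fstl3 (1.16) and Cx3cl1 (1.11). Metabolic genes were Mgst1 (1.75), Car9 (1.65), Mt1 (1.30), Idh2 (1.26), Glul (1.25), Ctsd (0.95) and Scd1 (0.66).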

How the results depend on the processing

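Among the alternatives, the minimum fold and leaving out a WT hypoxia library moved the counts of calls most; genes with under about 3 counts in a group allow only bounds at this depth. The 7580 genes called in hypoxia became 7696 with edgeR's quasi-likelihood test, 8436 with DESeq2, 2328 against a minimum fold of 2, and 3971 to 9058 when 1 library was left out (3971 without WT replicate 3). Those called in the same direction in normoxia became 2014 with the minimum fold and 3372 to 6295 with 1 library left out. Genes whose difference changed with oxygen numbered 1783 to 6465 with 1 library left out, being 2752 without WT hypoxia replicate 2. Genes with a gap wider than the spread numbered 4296 to 8059, the highest without WT replicate 1, and normoxia calls 11953 to 12534. Numbering the replicates as a replicate block gave 7350, 12524 and 5280 calls in hypoxia, normoxia and their difference. After removal of the group means, same-numbered AXL KO and WT hypoxia libraries correlated at 0.151, −0.0403 and 0.092. Differently numbered ones ran from −0.335 to 0.288. With 3 libraries per group these values cannot show whether same-numbered libraries share an origin. With WT replicates 2 and 3 left out, so that the WT spread is assumed from AXL KO, the sign turned for Mertk (−0.31), Erbb2 (−1.87), Krt8 (−0.37) and Krt18 (−0.21), and for the median of the glutathione and NRF2 list (0.02). The median of the HOX list turned to 0.19 with the stricter filter and lay between −0.24 and 0.03 with 1 library left out (0.03 without WT replicate 3). With that filter the median covers only the HOX genes that reach 5 CPM in at least 3 libraries, so the sets of genes differ. The cause was not tested. Of 151 genes, 120 kept their direction and their side of the threshold in every alternative. With quasi-likelihood on the 6 libraries the calls of Krt18 (adjusted p = 0.269), Nfkbia (0.0539) and Vegfa (0.0505) were lost. List medians with zero-count genes at their bound shifted by at most 0.00.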

Other observations

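Of 11 tested keratins 3 were higher and 3 lower in AXL KO hypoxia (54.5% called, against 49.8% of all genes, median log2 fold change 0.24), and without WT replicate 3 the counts were 0 and 3. Of 10 tested HOX genes 2 were higher and 3 lower (50% called, median −0.14), and without WT replicate 3 the counts were 1 and 2. Among genes read in only 1 genotype in hypoxia, Lrig3, which dampens receptor tyrosine kinases, stood at 60.9, 44.2 and 48.1 CPM in AXL KO hypoxia and had no count in WT hypoxia. Gpc4, a glypican that holds growth factors at the cell surface, stood at 74.5, 91.1 and 84.5 CPM in AXL KO hypoxia and had no count in WT hypoxia. P2ry14, a receptor for UDP-sugars, had no count in AXL KO hypoxia and stood at 1, 47.2 and 9.6 CPM in WT hypoxia. These 3 genes were chosen after their values were seen.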
